A study of Danio rerio with 10 samples.

Results

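The mitochondrial carrier family (SLC25) was examined here as 49 zebrafish genes out of 32265 in each deposited table. The gene name had to start with slc25a, in upper or lower case. With the carnitine-acylcarnitine carrier slc25a20 left out, 57 rows met this rule, and the uncoupling proteins named ucp do not carry such a name. A row was kept when it reached 1 FPKM (fragments counted for a gene, scaled to its transcript length and to the library's mapped fragments) in at least 1 of 7 conditions, a limit that 21160 genes of the tables passed. The 8 rows below it were slc25a13, slc25a23b, slc25a24l, slc25a27, slc25a29 and 3 rows whose names end in "1 of many" (SLC25A1, SLC25A22 and SLC25A29). Of the 49 members, 34 reached 1 FPKM in all 7 conditions.

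The study compared AB-strain zebrafish that carried human TPM3, a slow-muscle tropomyosin, with the substitution E151G or E151A, modelled for congenital myopathy, or unchanged as TPM3(WT). All groups, the TPM3(WT) controls included, carried the human transgene under the MLC2 muscle promoter together with a myl7:EGFP heart marker inserted by Tol2, so non-transgenic fish are not among the samples. Adult muscle was taken at 6 months from TPM3(E151G), TPM3(E151A) and TPM3(WT) fish, with 2 libraries a genotype that the authors combined into 1 FPKM. Embryos labelled as whole and of 2 days gave 1 library each for TPM3(E151G) in 10 µM L-carnitine, untreated TPM3(E151G), TPM3(E151A) and TPM3(WT). The labels give treatment from 28 hours to 7 days after fertilization, which does not match an age of 2 days, and the paper writes of muscle from embryos; which one holds was not settled. The sources used here do not give the transgenic line or the number of fish behind a library. With 1 value per condition there is no SD and no test for any value below, and a difference is given as the log2 ratio of FPKM + 1. Members that differed by at least 2-fold are counted as higher or lower. The sum of 1 understates the ratio of low genes.

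Carriers of this family sit in the inner mitochondrial membrane and exchange substrates between the cytosol and the matrix. In muscle they are best known for the ADP/ATP and phosphate carriers, which supply ATP synthase and export its product, and for the malate-aspartate shuttle, which brings reducing equivalents into the matrix. Others move citrate, amino acids, iron, nucleotides and vitamin-derived cofactors. The proteins are made in the cytosol and enter through the TOM complex and the TIM22 carrier translocase. The roles given here are known mainly from human, mouse and yeast proteins and were not measured in these fish.

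The FPKM values of all genes summed to 1404367 in adult TPM3(E151G), 759381 in TPM3(E151A) and 712396 in TPM3(WT) muscle, and to 575421 to 739917 in embryos. Transcripts of the mitochondrial genome made up 46.9%, 35.4% and 25.4% of it in the same order of adult genotypes, and 13 to 15.3% in embryos. Skeletal muscle markers were present in adults, with 15, 15 and 16 of 17 at 1 FPKM or more in TPM3(E151G), TPM3(E151A) and TPM3(WT) muscle. They summed to 69575 FPKM in TPM3(E151G), 45478 in TPM3(E151A) and 39433 in TPM3(WT) muscle. Markers of other tissues were present too. Exocrine pancreas markers summed to 2283 FPKM in TPM3(E151G), 1276 in TPM3(E151A) and 428 in TPM3(WT) muscle, and neuron markers to 149 FPKM in TPM3(E151G), 83.3 in TPM3(E151A) and 53.6 in TPM3(WT) muscle. The summed level of 12 oocyte markers was 921 FPKM in TPM3(E151G), 1223 in TPM3(E151A) and 4673 in TPM3(WT) muscle, with all 12 at 1 FPKM or more in each. The 12 testis and meiosis markers summed to 13 FPKM in TPM3(E151G), 318 in TPM3(E151A) and 57.8 in TPM3(WT) muscle. Intestine markers summed to 123 FPKM in TPM3(E151G), 256 in TPM3(E151A) and 540 in TPM3(WT) muscle. Of these, fabp6 had 17.5, 188 and 475 FPKM in the same order, while cdh17 ran the other way, at 70.7, 47.3 and 34.1 FPKM. Slow muscle markers, all 7 at 1 FPKM or more in each genotype, summed to 516 FPKM in TPM3(E151G), 278 in TPM3(E151A) and 318 in TPM3(WT) muscle. Of these, the zebrafish gene tpm3 was highest in TPM3(WT), at 159 FPKM. The skeletal muscle, pancreas and neuron sums had the same order of genotypes as the family's sum below. The part of these tissues and of slow muscle in that sum was not tested. A few genes weighed most in some of these sums, such as fabp6 in the intestine sum of TPM3(WT). In TPM3(E151G) muscle, ckmb had 29968 FPKM among the skeletal muscle markers and snap25a 90.7 FPKM among the neuron markers. Other markers did not follow: myhz1.2, myhz2, tnnt3a and tnni2a.4 had the opposite order, and the neuron marker elavl3 was highest in TPM3(WT). In bulk tissue, fewer cells of a type and less RNA per cell cannot be told apart.

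A pair of ADP/ATP carriers dominated the family in every condition. slc25a5 (chr14:32541310-32543824 of GRCz11, ENSDARG00000092553) had 6306 FPKM in TPM3(E151G), 3367 in TPM3(E151A) and 2241 in TPM3(WT) muscle. Its embryo values were 2597 FPKM in L-carnitine-treated TPM3(E151G), 3591 in TPM3(E151G), 3245 in TPM3(E151A) and 2486 in TPM3(WT) embryos. slc25a4 (chr1:16974995-16986152), the ADP/ATP carrier most abundant in mammalian heart and skeletal muscle, had 2696 FPKM in TPM3(E151G), 1641 in TPM3(E151A) and 1042 in TPM3(WT) muscle, against 448 to 588 FPKM in the 4 embryo conditions. Together slc25a5 and slc25a4 held 70.6 to 77.0% of the family's summed FPKM over the 7 conditions. The slc25a5 level was 2.05 to 2.34 times that of slc25a4 in adult muscle and 4.82 to 7.25 times in embryos. The phosphate carrier slc25a3b (chr25:3180944-3195621) ranked next in TPM3(WT) muscle and came after slc25a4 in TPM3(WT) embryos as well.

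Below these 3, the ranking differed between adult muscle and embryos, whose tables were normalized separately. In TPM3(WT) muscle the next members were slc25a25a (215 FPKM), slc25a11 (170.0 FPKM), slc25a12 (64.2 FPKM), slc25a22 (61.6 FPKM) and slc25a51b (43.1 FPKM). In TPM3(WT) embryos they were slc25a22 (211 FPKM), slc25a11 (96.9 FPKM), slc25a36a (45.6 FPKM), slc25a12 (40.6 FPKM) and slc25a39 (20.1 FPKM). The calcium-regulated ATP-Mg/phosphate carrier slc25a25a stood furthest apart between the ages among these, with 203 FPKM in TPM3(E151G), 194 in TPM3(E151A) and 215 in TPM3(WT) muscle and 8.21 to 12.6 FPKM in embryos. The median member had a far lower level than the leading ones, 4.82 to 6.04 FPKM over the adult genotypes and 5.48 to 7.09 FPKM over the embryo conditions.

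**Figure D1:**
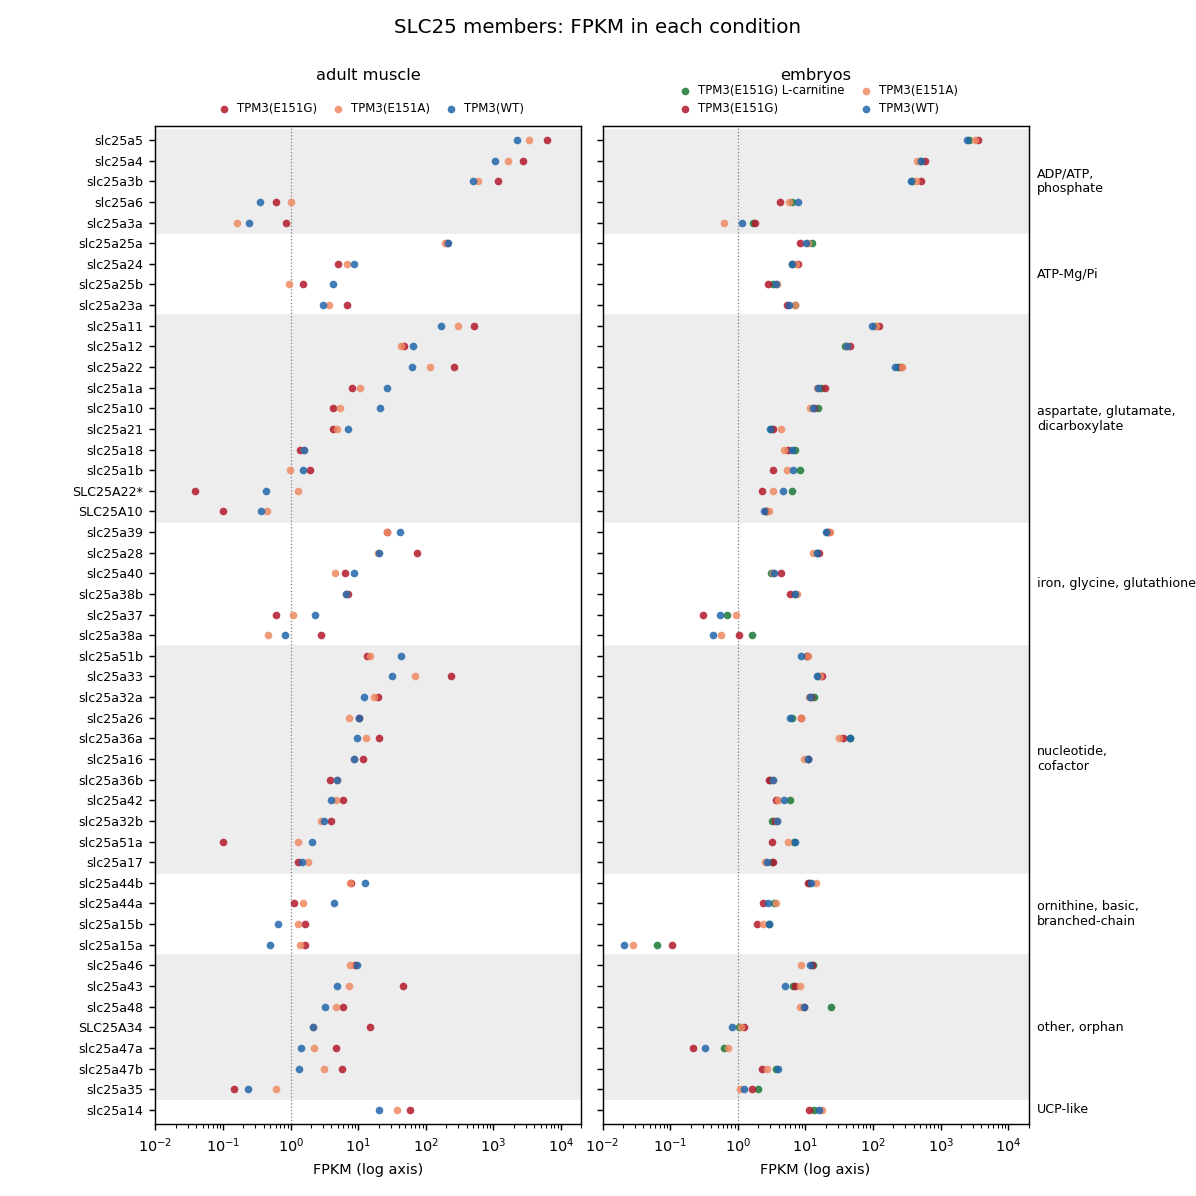
FPKM of 48 SLC25 members (rows, grouped by role, grey and white bands) on a log axis in adult muscle (left) and embryos (right); each point is 1 condition, and an asterisk stands for "1 of many" in a name. The leading members slc25a5, slc25a4 and slc25a3b lie above 366 FPKM in all conditions, and the adult genotypes lie further apart than the embryo conditions do.

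The family as a whole was more abundant in adult TPM3(E151G) muscle in deposited FPKM. Members summed to 11834 FPKM in TPM3(E151G), 6558 in TPM3(E151A) and 4647 in TPM3(WT) muscle. As a share of all FPKM the sum was 0.843%, 0.864% and 0.652%, so the order of the mutants turned round. As a share of the FPKM of nuclear genes it was 1.59% in TPM3(E151G), 1.34% in TPM3(E151A) and 0.874% in TPM3(WT). The sum without slc25a5, slc25a4 and slc25a3b was 1.93 times the TPM3(WT) value in TPM3(E151G) and 1.12 times in TPM3(E151A). As a share of all FPKM that remainder was 0.118% in TPM3(E151G), 0.128% in TPM3(E151A) and 0.121% in TPM3(WT), so the higher family share of TPM3(E151G) lay in the 3 leading members, while as a share of nuclear FPKM it stayed higher in both mutants, at 0.223%, 0.198% and 0.162%.

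Member by member, TPM3(E151G) muscle differed most from TPM3(WT). Of 44 members compared, 13 were at least 2-fold higher and 8 at least 2-fold lower, against 17.4% of 16572 genes higher and 25.5% lower. The members' shares were 29.5% and 18.2%. Their median log2 ratio was 0.25, beside -0.14 over all genes. The split depended on the scale: with each condition scaled to the same FPKM sum, 4 members were higher and 16 lower, and the median was -0.49, beside 5.07% higher, 47.5% lower and a median of -0.93 over all genes at that scaling. Members kept at 2-fold or more higher under all 3 other scalings tried were slc25a43, slc25a33, SLC25A34 and slc25a22. Those kept lower were slc25a10, slc25a1a, slc25a51b, slc25a44a and slc25a51a, the last at 1 FPKM or more in TPM3(WT) but not in TPM3(E151G). The others fell under 2-fold in at least 1 scaling, and no member so counted changed direction in any.

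TPM3(E151A) muscle had 1 of 45 members higher and 5 lower than TPM3(WT), against 9.9% and 19.2% of 16865 genes. The median was -0.00 for the members and -0.22 for all genes, and median-of-ratios scaling turned the split round to 6 higher and 3 lower, beside 14.7% and 11.2% of all genes. slc25a33 stayed higher, and slc25a10, slc25a25b and slc25a51b stayed lower, under all 3 other scalings. In TPM3(E151A) muscle slc25a25b did not reach 1 FPKM. TPM3(E151G) set directly against TPM3(E151A) gave 7 of 46 members higher and 2 lower, against 10.1% and 9.88% of 16715 genes, and 2 higher and 6 lower at the same FPKM sum, where 1.66% and 29.5% of all genes were. There SLC25A34 and slc25a43 stayed higher, and slc25a51a and SLC25A22 (1 of many) of chromosome 25 lower, under all 3. Both lower members passed the 1 FPKM limit only through TPM3(E151A), at 1.27 and 1.28 FPKM, against 0.101 and 0.0382 FPKM in TPM3(E151G). These comparisons share libraries pairwise and are not independent of each other. In deposited FPKM, 17 of the 49 members had their highest level in TPM3(E151G), a lower one in TPM3(E151A) and the lowest in TPM3(WT), and 10 had the opposite order. How many of all genes had either order was not counted, so these 2 counts have no background. The FPKM sums of all genes, given above, had the first of these orders.

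**Figure D2:**
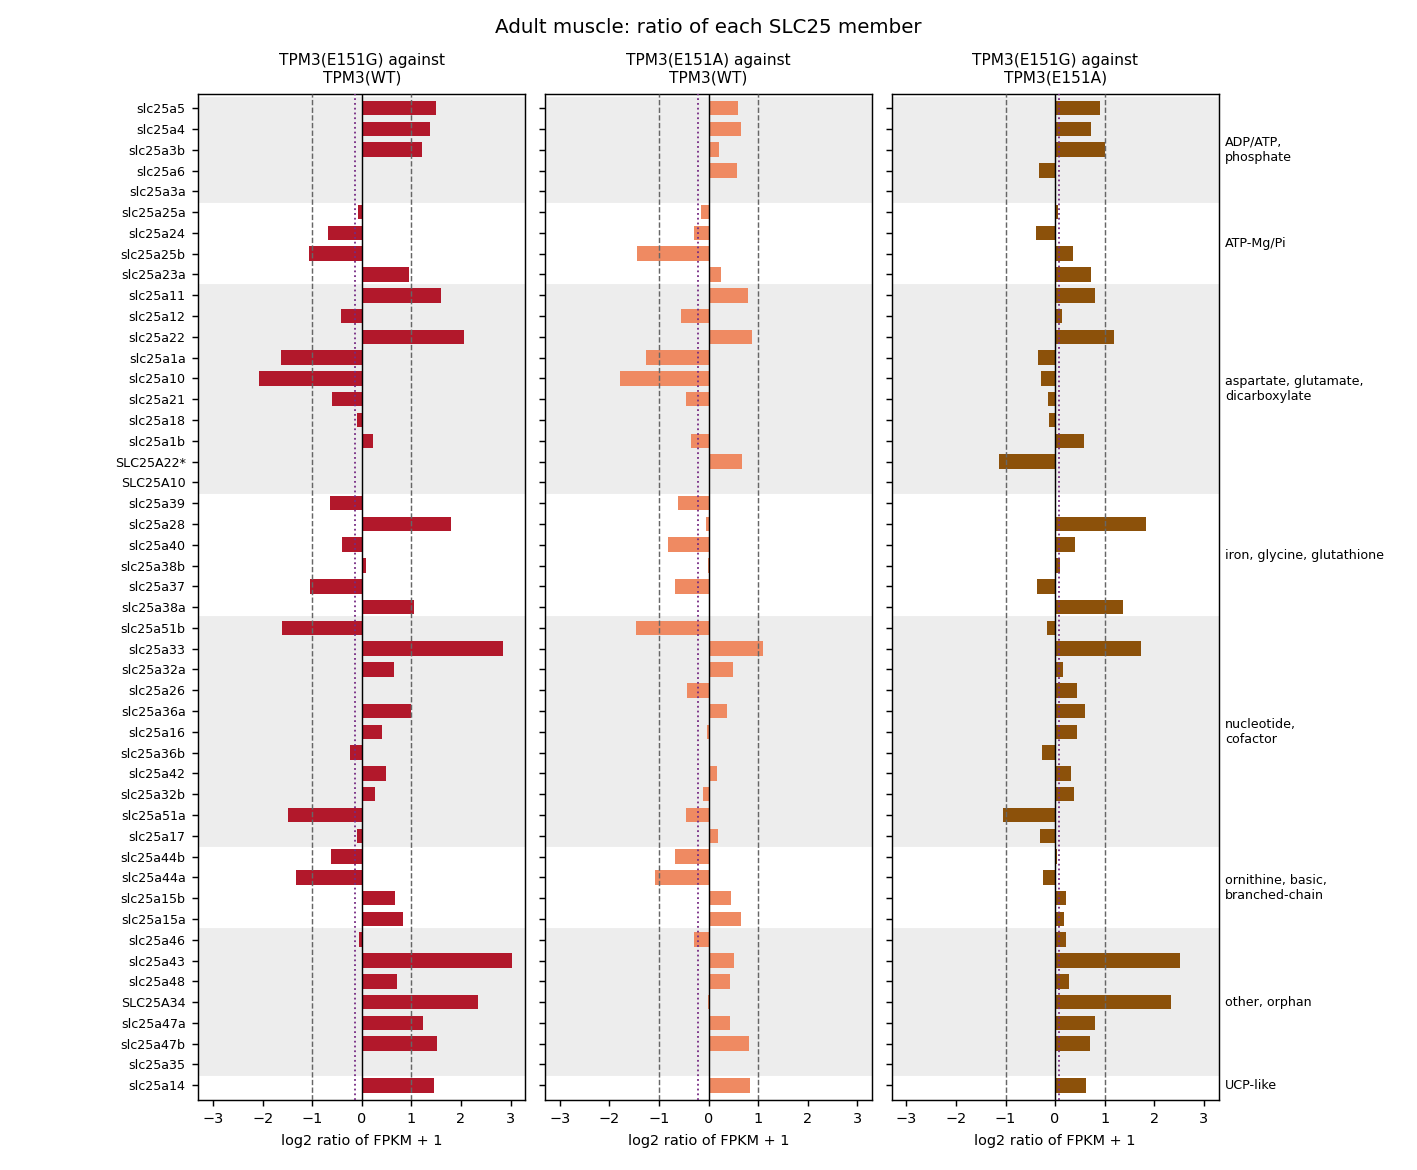
Log2 ratio of FPKM + 1 for each member in adult muscle, 1 bar per member, for TPM3(E151G) against TPM3(WT), TPM3(E151A) against TPM3(WT) and TPM3(E151G) against TPM3(E151A); dashed lines mark 2-fold, the dotted line is the median of all genes, and a member under 1 FPKM in both genotypes has no bar. slc25a43 reaches 3.03 and slc25a10 -2.07 in the first panel.

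The ADP/ATP and phosphate carriers were higher in adult TPM3(E151G) muscle. Set against TPM3(WT), the log2 ratio was 1.49 for slc25a5, 1.37 for slc25a4 and 1.22 for slc25a3b. In TPM3(E151A) muscle the ratios were smaller, 0.59 for slc25a5, 0.65 for slc25a4 and 0.21 for slc25a3b, and none reached 2-fold. slc25a3b, which supplies the matrix with phosphate, had 1173 FPKM in TPM3(E151G), 582 in TPM3(E151A) and 503 in TPM3(WT) muscle. Its locus also holds a pair of SNORA53 small RNA genes. At the same FPKM sum the TPM3(E151G) ratios shrank to 0.51 for slc25a5, 0.39 for slc25a4 and 0.24 for slc25a3b, still above 0. The group's other members were near or under 1 FPKM in adults, with slc25a6, a further ADP/ATP carrier, at 0.60, 1.01 and 0.348 FPKM and slc25a3a at 0.844, 0.161 and 0.241 FPKM in TPM3(E151G), TPM3(E151A) and TPM3(WT) muscle.

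The ATP-Mg/phosphate carriers, which load the matrix with adenine nucleotides when calcium rises, had mixed values. Against TPM3(WT), slc25a25a had log2 ratios near 0, at -0.08 for TPM3(E151G) and -0.14 for TPM3(E151A). Its paralog slc25a25b was lower in both mutants, with 1.51 FPKM in TPM3(E151G), 0.948 in TPM3(E151A) and 4.29 in TPM3(WT) muscle. The ratios were -1.08 for TPM3(E151G) and -1.44 for TPM3(E151A). Embryos had 2.82 to 3.78 FPKM of it. slc25a23a, of the same group, had 6.75 FPKM in TPM3(E151G), 3.72 in TPM3(E151A) and 2.99 in TPM3(WT) muscle, with ratios of 0.96 for TPM3(E151G) and 0.24 for TPM3(E151A) against TPM3(WT). The group's sum was 216 FPKM in TPM3(E151G), 206 in TPM3(E151A) and 231 in TPM3(WT) muscle.

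Among the carriers of citrate cycle intermediates and amino acids that feed the malate-aspartate shuttle, some members were higher and others lower in TPM3(E151G). The 2-oxoglutarate/malate carrier slc25a11 (chr5:67397950-67414207) had 516 FPKM in TPM3(E151G), 295 in TPM3(E151A) and 170.0 in TPM3(WT) muscle, a log2 ratio of 1.6 for TPM3(E151G) and 0.79 for TPM3(E151A). The gene that the files name slc25a22 (chr6:49096982-49108393, ENSDARG00000020893) had 262 FPKM in TPM3(E151G), 115 in TPM3(E151A) and 61.6 in TPM3(WT) muscle. Its ratio was 2.07 for TPM3(E151G), 0.89 for TPM3(E151A) and 1.18 between the mutants. Mammalian SLC25A22 carries glutamate, but the reference gene table names this zebrafish gene slc25a55a, so its substrate is not taken as known. The aspartate/glutamate carrier slc25a12, the other shuttle carrier, did not follow slc25a11 and had 47.8 FPKM in TPM3(E151G), 43.5 in TPM3(E151A) and 64.2 in TPM3(WT) muscle.

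The dicarboxylate carrier slc25a10 and the citrate carrier slc25a1a, both tied to lipid and anaplerotic metabolism in liver and fat of mammals, were lower in both mutants. slc25a10 (chr1:55755084-55765235) had 4.27 FPKM in TPM3(E151G), 5.45 in TPM3(E151A) and 21.2 in TPM3(WT) muscle, a ratio of -2.07 for TPM3(E151G) and -1.78 for TPM3(E151A). slc25a1a (chr10:23090938-23099871) had 8.08 FPKM in TPM3(E151G), 10.6 in TPM3(E151A) and 27.0 in TPM3(WT) muscle, a ratio of -1.62 for TPM3(E151G) and -1.27 for TPM3(E151A). Its paralog slc25a1b was low in adults, at 1.94, 0.975 and 1.52 FPKM in TPM3(E151G), TPM3(E151A) and TPM3(WT). One gene named SLC25A22 (1 of many) (chr25:4333511-4355991, ENSDARG00000020718), slc25a22a in the reference gene table, was counted as lower in TPM3(E151G) when set against TPM3(E151A), at -1.13. It had 0.0382 FPKM in TPM3(E151G), 1.28 in TPM3(E151A) and 0.427 in TPM3(WT) muscle, and the testis and meiosis markers given above were also highest in TPM3(E151A); their part in this value was not tested.

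Carriers of iron, glycine and glutathione, which serve heme and iron-sulfur cluster synthesis, were mixed. slc25a28, the iron importer mitoferrin-2 found in most tissues of mammals (chr13:40208836-40228423), had 72.8 FPKM in TPM3(E151G), 19.7 in TPM3(E151A) and 20.3 in TPM3(WT) muscle. It was higher in TPM3(E151G) against either other genotype, at 1.79 against TPM3(WT) and 1.84 against TPM3(E151A). slc25a37, the mitoferrin-1 of developing red cells, was low, at 0.607 FPKM in TPM3(E151G), 1.07 in TPM3(E151A) and 2.33 in TPM3(WT) muscle. Against TPM3(WT) its ratio was -1.05 for TPM3(E151G), counted as lower, and -0.68 for TPM3(E151A). Embryos had 0.304 to 0.954 FPKM of it. The glycine carrier pair differed, with slc25a38a at 2.78, 0.460 and 0.826 FPKM and slc25a38b at 7.17, 6.62 and 6.69 FPKM in TPM3(E151G), TPM3(E151A) and TPM3(WT). The slc25a38a ratio was 1.05 for TPM3(E151G) against TPM3(WT) and 1.37 against TPM3(E151A). In both comparisons slc25a38a reached 1 FPKM only in TPM3(E151G), and its lowest ratios over the 3 other scalings were 0.47 and 0.92. The glutathione carrier slc25a39 had 26.2 FPKM in TPM3(E151G), 26.4 in TPM3(E151A) and 41.2 in TPM3(WT) muscle, under 2-fold in all 3 adult comparisons. Of 15 red blood cell markers, 10 reached 1 FPKM in each genotype, and they summed to 1385 FPKM in TPM3(E151G), 2912 in TPM3(E151A) and 683 in TPM3(WT) muscle. Their part in the values of these carriers was not tested.

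The pyrimidine nucleotide carrier slc25a33, which insulin and mTOR signals induce in human cells, showed one of the largest differences of the family. slc25a33 (chr23:29934701-29952102, ENSDARG00000039931) had 232 FPKM in TPM3(E151G), 68.9 in TPM3(E151A) and 31.5 in TPM3(WT) muscle. Its log2 ratio was 2.84 for TPM3(E151G) against TPM3(WT), 1.1 for TPM3(E151A) against the same controls and 1.74 between the mutants, so it was the only member counted as higher in all 3. Over the 3 other scalings the first ranged from 1.88 to 3.00, the second from 1.01 to 1.44 and the third from 0.86 to 1.57, under 2-fold at the same FPKM sum. Embryos did not show it, with 15.5, 17.7, 16.6 and 14.6 FPKM in L-carnitine-treated TPM3(E151G), TPM3(E151G), TPM3(E151A) and TPM3(WT). Its relatives slc25a36a and slc25a36b, also pyrimidine nucleotide carriers, had 20.1, 12.8 and 9.67 FPKM and 3.88, 4.82 and 4.77 FPKM in adult TPM3(E151G), TPM3(E151A) and TPM3(WT) muscle.

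Carriers of NAD were lower in TPM3(E151G) muscle. The NAD carrier slc25a51b (chr14:4071256-4077723) had 13.3 FPKM in TPM3(E151G), 15.1 in TPM3(E151A) and 43.1 in TPM3(WT) muscle, a ratio of -1.62 for TPM3(E151G) and -1.45 for TPM3(E151A). Its paralog slc25a51a had 0.101 FPKM in TPM3(E151G), 1.27 in TPM3(E151A) and 2.1 in TPM3(WT) muscle and ratios of -1.49 and -0.45 for the same comparisons. The folate carrier pair was under 2-fold throughout, with slc25a32a at 19.6, 17.3 and 12.1 FPKM and slc25a32b at 3.91, 2.77 and 3.08 FPKM in TPM3(E151G), TPM3(E151A) and TPM3(WT) muscle.

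Among the carriers of ornithine, basic and branched-chain amino acids, slc25a44a was the only one past 2-fold. slc25a44 proteins import branched-chain amino acids in mammalian brown fat. slc25a44a had 1.13 FPKM in TPM3(E151G), 1.51 in TPM3(E151A) and 4.35 in TPM3(WT) muscle, at -1.33 for TPM3(E151G) and -1.09 for TPM3(E151A) against TPM3(WT). slc25a44b had 7.80, 7.59 and 12.6 FPKM in the same order, a smaller difference in the same direction. The ornithine carriers slc25a15a and slc25a15b, which link to the urea cycle, had 1.65, 1.36 and 0.489 FPKM and 1.65, 1.28 and 0.660 FPKM.

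The 5 members at least 2-fold lower than TPM3(WT) in each mutant were slc25a10, slc25a1a, slc25a51b, slc25a44a and slc25a25b. How many of all genes were lower in both mutants was not counted, so this count has no background. Both ratios use the same TPM3(WT) value. In at least 1 of the 3 other scalings, slc25a1a and slc25a44a fell under 2-fold for TPM3(E151A), and slc25a25b for TPM3(E151G). The 5 shared their direction with the sums of the oocyte and intestine markers given above. Most of the intestine sum in TPM3(WT) was fabp6, while cdh17 ran the other way. The part of oocyte or intestine RNA in these 5 differences was not tested. In embryos, whose tables were normalized separately, these 5 members had, in the same order, 11.5 to 15.5, 14.7 to 19.7, 8.74 to 11, 2.37 to 3.67 and 2.82 to 3.78 FPKM.

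Carriers without an established substrate, or of debated function, included the largest ratio of all. slc25a43 (chr14:32544416-32567437, ENSDARG00000102048) had 46.6 FPKM in TPM3(E151G), 7.33 in TPM3(E151A) and 4.83 in TPM3(WT) muscle, a log2 ratio of 3.03 for TPM3(E151G) against TPM3(WT) and 2.52 against TPM3(E151A). It starts 592 bases after the end of slc25a5 on chromosome 14. The slc25a43 level was 0.740% of that of slc25a5 in adult TPM3(E151G), 0.218% in TPM3(E151A) and 0.215% in TPM3(WT) muscle, and 0.192 to 0.253% in embryos. Adult TPM3(E151G) thus stood apart from the other 6 conditions in this share as well, and whether fragments of slc25a5 entered the slc25a43 value was not tested.

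SLC25A34 (chr22:207264-215073), an orphan carrier, had 14.7 FPKM in TPM3(E151G), 2.11 in TPM3(E151A) and 2.11 in TPM3(WT) muscle and 0.830 to 1.23 FPKM in embryos. Its ratio was 2.34 against TPM3(WT) and 2.34 against TPM3(E151A), with the other 2 genotypes at the same level. slc25a14, a carrier related to the uncoupling proteins and known from mammalian brain, had 58.0 FPKM in TPM3(E151G), 37.5 in TPM3(E151A) and 20.5 in TPM3(WT) muscle, a ratio of 1.45 for TPM3(E151G) and 0.84 for TPM3(E151A). The liver-enriched carriers of mammals, slc25a47a and slc25a47b, had 4.66, 2.25 and 1.41 FPKM and 5.71, 3.12 and 1.33 FPKM in TPM3(E151G), TPM3(E151A) and TPM3(WT). Their ratios for TPM3(E151G) were 1.23 and 1.53. Of 15 liver markers, 7 in TPM3(E151G), 9 in TPM3(E151A) and 2 in TPM3(WT) muscle reached 1 FPKM, hpx was listed at 0 in TPM3(WT), and their sum of 1341 FPKM in TPM3(E151G), 599 in TPM3(E151A) and 359 in TPM3(WT) muscle came mostly from rbp4; their part in the slc25a47 values was not tested.

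The members were also compared by level between TPM3(E151G) and TPM3(WT) muscle. Of the 8 members with a mean of 50 FPKM or more over both genotypes, 6 were higher by 2-fold or more and none lower, with a median of 1.43. Of these 6, slc25a33 passed 50 FPKM only through TPM3(E151G). In deposited FPKM, genes of that level were higher in general, 36.4% of 1466 genes by 2-fold or more with a median of 0.52. At the same FPKM sum the medians were 0.45 for these members and -0.44 for genes of that level. Of the 12 members between 10 and 50 FPKM, 3 were higher and 3 lower, against 18.6% and 33.3% of all genes of that level. Among those, slc25a43 passed 10 FPKM only through TPM3(E151G), and slc25a10 and slc25a1a only through TPM3(WT). Of the 24 below 10 FPKM, 4 were higher and 5 lower, against 14.2% and 22.4%. The higher slc25a38a reached 1 FPKM only through TPM3(E151G). Lower members that did so only through TPM3(WT) included slc25a51a and slc25a37. The 2 abundant members under 2-fold were slc25a25a and slc25a12.

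**Figure D3:**
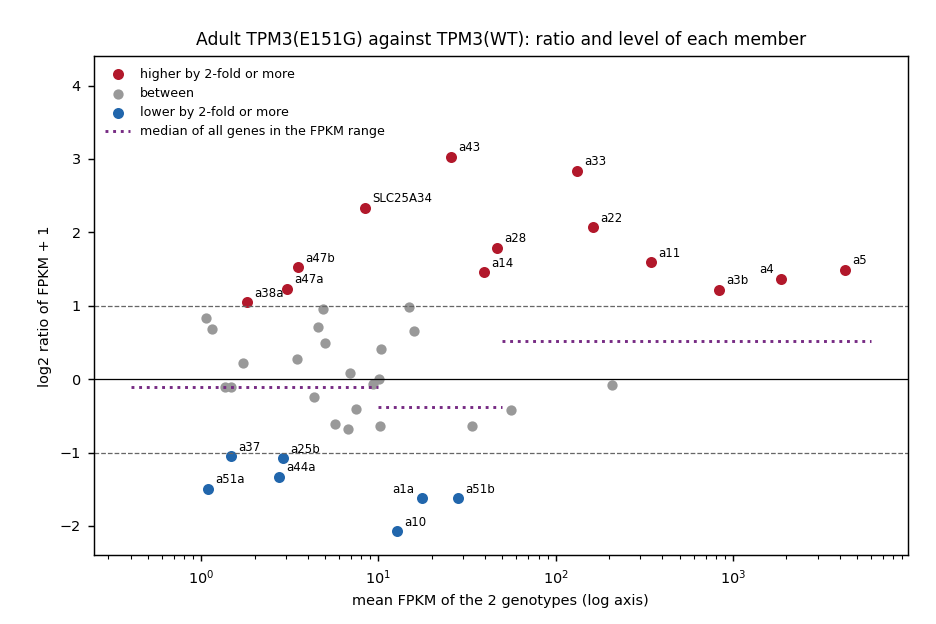
Log2 ratio of FPKM + 1 of adult TPM3(E151G) against TPM3(WT) for 43 of the 44 members compared (vertical) against their mean FPKM (horizontal, log axis), with red for members higher and blue for members lower by 2-fold or more; labels drop the slc25 prefix, and dotted lines give the median of all genes in the same FPKM range. The 6 red points at 50 FPKM or more are slc25a5, slc25a4, slc25a3b, slc25a11, slc25a22 and slc25a33.

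Zebrafish keep duplicate copies of many carriers, and in 10 pairs both copies passed the 1 FPKM limit. In 8 of them the same copy led in all 7 conditions. slc25a3b exceeded slc25a3a by 225 to 3611 times. slc25a25b was 0.00488 to 0.020 times slc25a25a in adults and 0.260 to 0.36 times in embryos. The NAD carriers were nearly equal in TPM3(WT) embryos, where slc25a51b was 1.26 times slc25a51a, and far apart in adults, with 132 times in TPM3(E151G), 11.9 times in TPM3(E151A) and 20.6 times in TPM3(WT). The ornithine carriers had similar levels in adults, and slc25a15a was at 0.0207 to 0.108 FPKM in embryos against 1.94 to 2.89 FPKM for slc25a15b. slc25a47b was 0.943 to 1.39 times slc25a47a in adults and 3.80 to 11.9 times in embryos, with slc25a47a at 0.214 to 0.704 FPKM there. Reads that fit both copies of a pair could be split between them in the authors' processing, so the levels of close copies are uncertain. The files also list another gene at the loci of slc25a4 and slc25a43.

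**Figure D4:**
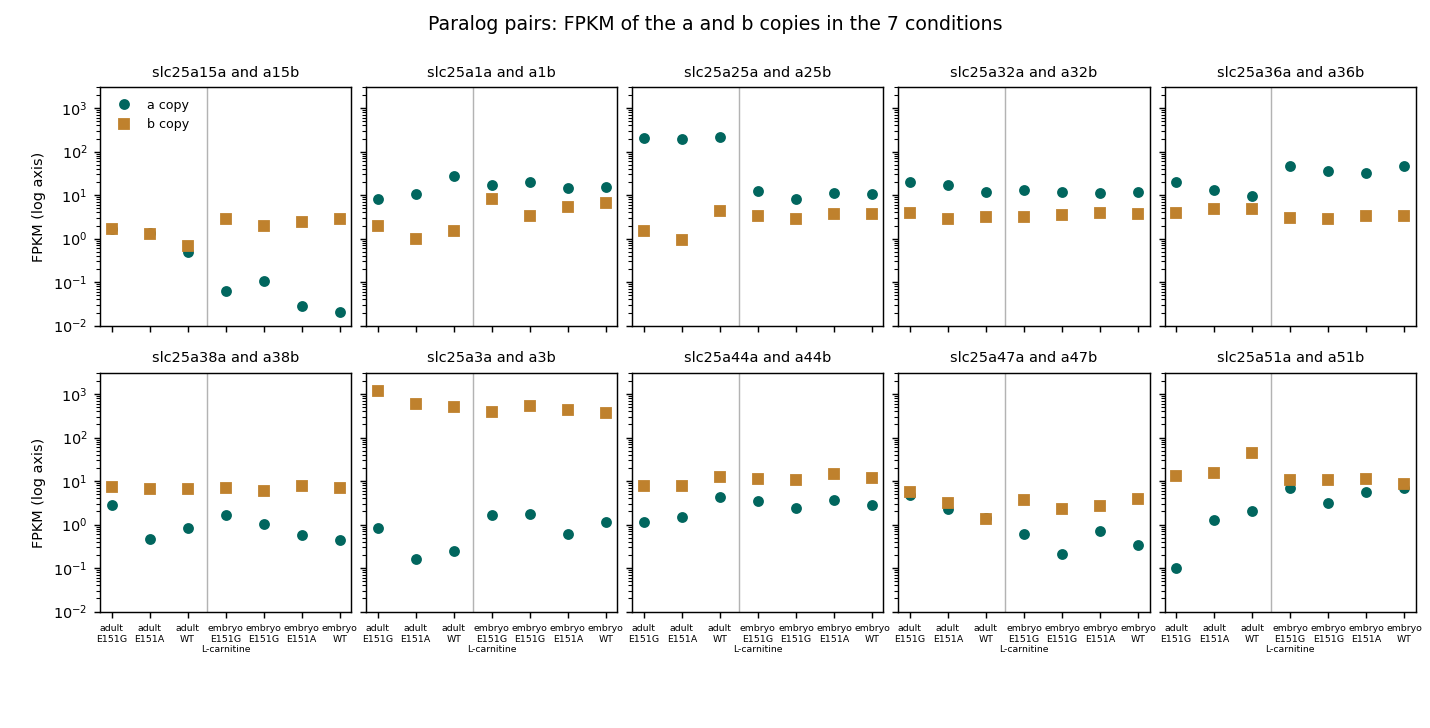
FPKM (log axis) of the a copy (circles) and b copy (squares) of 10 paralog pairs in the 3 adult and 4 embryo conditions, adults left of the grey line. slc25a25a lies near 203 FPKM in adults and near 11.1 FPKM in embryos, and slc25a15a is below 1 FPKM in all embryo conditions.

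Genes that work with the carriers were read from lists made by function. Of 15 genes of the TOM and TIM22 import machinery, 6 were lower and 1 higher in TPM3(E151G) muscle relative to TPM3(WT), at a median of -0.86. For TPM3(E151A) the counts were 6 lower and 0 higher and the median -0.94, and every scaling kept both medians below 0. Over all genes 25.5% were lower and 17.4% higher in TPM3(E151G), and 19.2% and 9.9% in TPM3(E151A). The medians of all genes were -0.14 and -0.22. At the same FPKM sum they were -0.93 and -0.29, beside -1.79 and -1.03 for the list. With median-of-ratios scaling they were -0.01 and 0.06, beside -0.70 and -0.63. timm22, the channel that inserts carriers into the inner membrane, had 3.90, 5.28 and 19.5 FPKM in TPM3(E151G), TPM3(E151A) and TPM3(WT). timm10b, a chaperone that guides carriers across the intermembrane space, had 17.1, 17.5 and 49.8 FPKM. The receptor gene tomm20b was the 1 higher in TPM3(E151G), at 224, 117 and 80.7 FPKM. The list's direction was thus opposite to that of slc25a5, slc25a4 and slc25a3b in TPM3(E151G). It was also that of the oocyte marker sum and of the intestine marker sum, which was mostly fabp6 in TPM3(WT). The part of these tissues was not tested.

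Of 24 malate-aspartate shuttle and citrate cycle genes compared, 7 were higher and 0 lower in TPM3(E151G) muscle relative to TPM3(WT), with a median of 0.67, and 1 was higher and 0 lower for TPM3(E151A), where the median was 0.01. Over all genes 17.4% were higher and 25.5% lower in TPM3(E151G), with a median of -0.14, which is also the background of the next 2 lists. For TPM3(E151A) the shares of all genes were 9.9% and 19.2%. At the same FPKM sum the TPM3(E151G) median turned to -0.22, with 0 higher and 3 lower, and that of all genes to -0.93. There 5.07% of all genes were higher and 47.5% lower, the background at that scaling for the next 2 lists too. Isocitrate dehydrogenase idh2 had 3192, 1523 and 1113 FPKM in TPM3(E151G), TPM3(E151A) and TPM3(WT), and citrate synthase cs had 396, 162 and 127 FPKM. The aspartate aminotransferases of the shuttle stayed under 2-fold, with got1 at 81.0, 66.7 and 64.1 FPKM and got2b at 65.8, 52.7 and 78.8 FPKM. Of 13 genes for outer membrane, pyruvate and calcium entry, 4 were higher and 1 lower in TPM3(E151G), and 0 higher and 4 lower at the same FPKM sum. The outer membrane channel vdac2 had 1014, 544 and 362 FPKM and vdac3 554, 156 and 154 FPKM, while vdac1 had 35.5, 44.4 and 73.4 FPKM. The 12 heme synthesis genes gave 1 higher and 5 lower in TPM3(E151G), with a median of -0.58, and 0 higher and 6 lower at the same FPKM sum. The higher one was alas2, the red cell form of the first enzyme, at 14.7, 35.6 and 6.49 FPKM, and cpox was among the lower ones at 2.37, 5.73 and 17.6 FPKM.

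In embryos the genotypes lay closer together in deposited FPKM. No member of 46 differed by 2-fold or more between TPM3(E151G) and TPM3(WT), against 0.637% of 17581 genes higher and 1.79% lower. At the same FPKM sum, and at the same sum of nuclear genes, 4 members were lower, beside 5.27% and 5.36% of all genes. Between TPM3(E151A) and TPM3(WT) no member of 45 differed by 2-fold or more, against 0.99% higher and 0.996% lower of 17577 genes. None of these 45 passed 2-fold under the 3 other scalings. The median ratios were 0.06 and 0.02 for TPM3(E151G) and TPM3(E151A), beside 0.04 and 0.02 over all genes. Both ratios use the same TPM3(WT) library. The family's summed FPKM was 0.693% of all FPKM in L-carnitine-treated TPM3(E151G), 0.734% in TPM3(E151G), 0.738% in TPM3(E151A) and 0.702% in TPM3(WT).

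The lowest ratios of TPM3(E151G) embryos were all of members of low level. At 1.5-fold, 5 members were lower and none higher, against 9.06% and 5.06% of all genes. They were slc25a51a (-0.93), slc25a1b (-0.82), SLC25A22 (1 of many) of chromosome 25 (-0.80), the ADP/ATP carrier slc25a6 (-0.76) and slc25a47b (-0.59). The NAD carrier slc25a51a had 6.79 FPKM in L-carnitine-treated TPM3(E151G), 3.16 in TPM3(E151G), 5.47 in TPM3(E151A) and 6.94 in TPM3(WT) embryos. slc25a6 had 6.34 FPKM in L-carnitine-treated TPM3(E151G), 4.20 in TPM3(E151G), 5.68 in TPM3(E151A) and 7.80 in TPM3(WT) embryos. In deposited FPKM the abundant carriers lay the other way, with slc25a5 at 0.53 and slc25a3b at 0.50, as did all genes of 50 FPKM or more, whose median was 0.34, and at the same FPKM sum the median of the 5 members of that level was -0.03. In TPM3(E151A) embryos the ratios ran between -0.52 (slc25a36a) and 0.62 (slc25a43). The pyrimidine nucleotide carrier slc25a36a had 46.2, 35.5, 31.4 and 45.6 FPKM in L-carnitine-treated TPM3(E151G), TPM3(E151G), TPM3(E151A) and TPM3(WT) embryos.

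**Figure D5:**
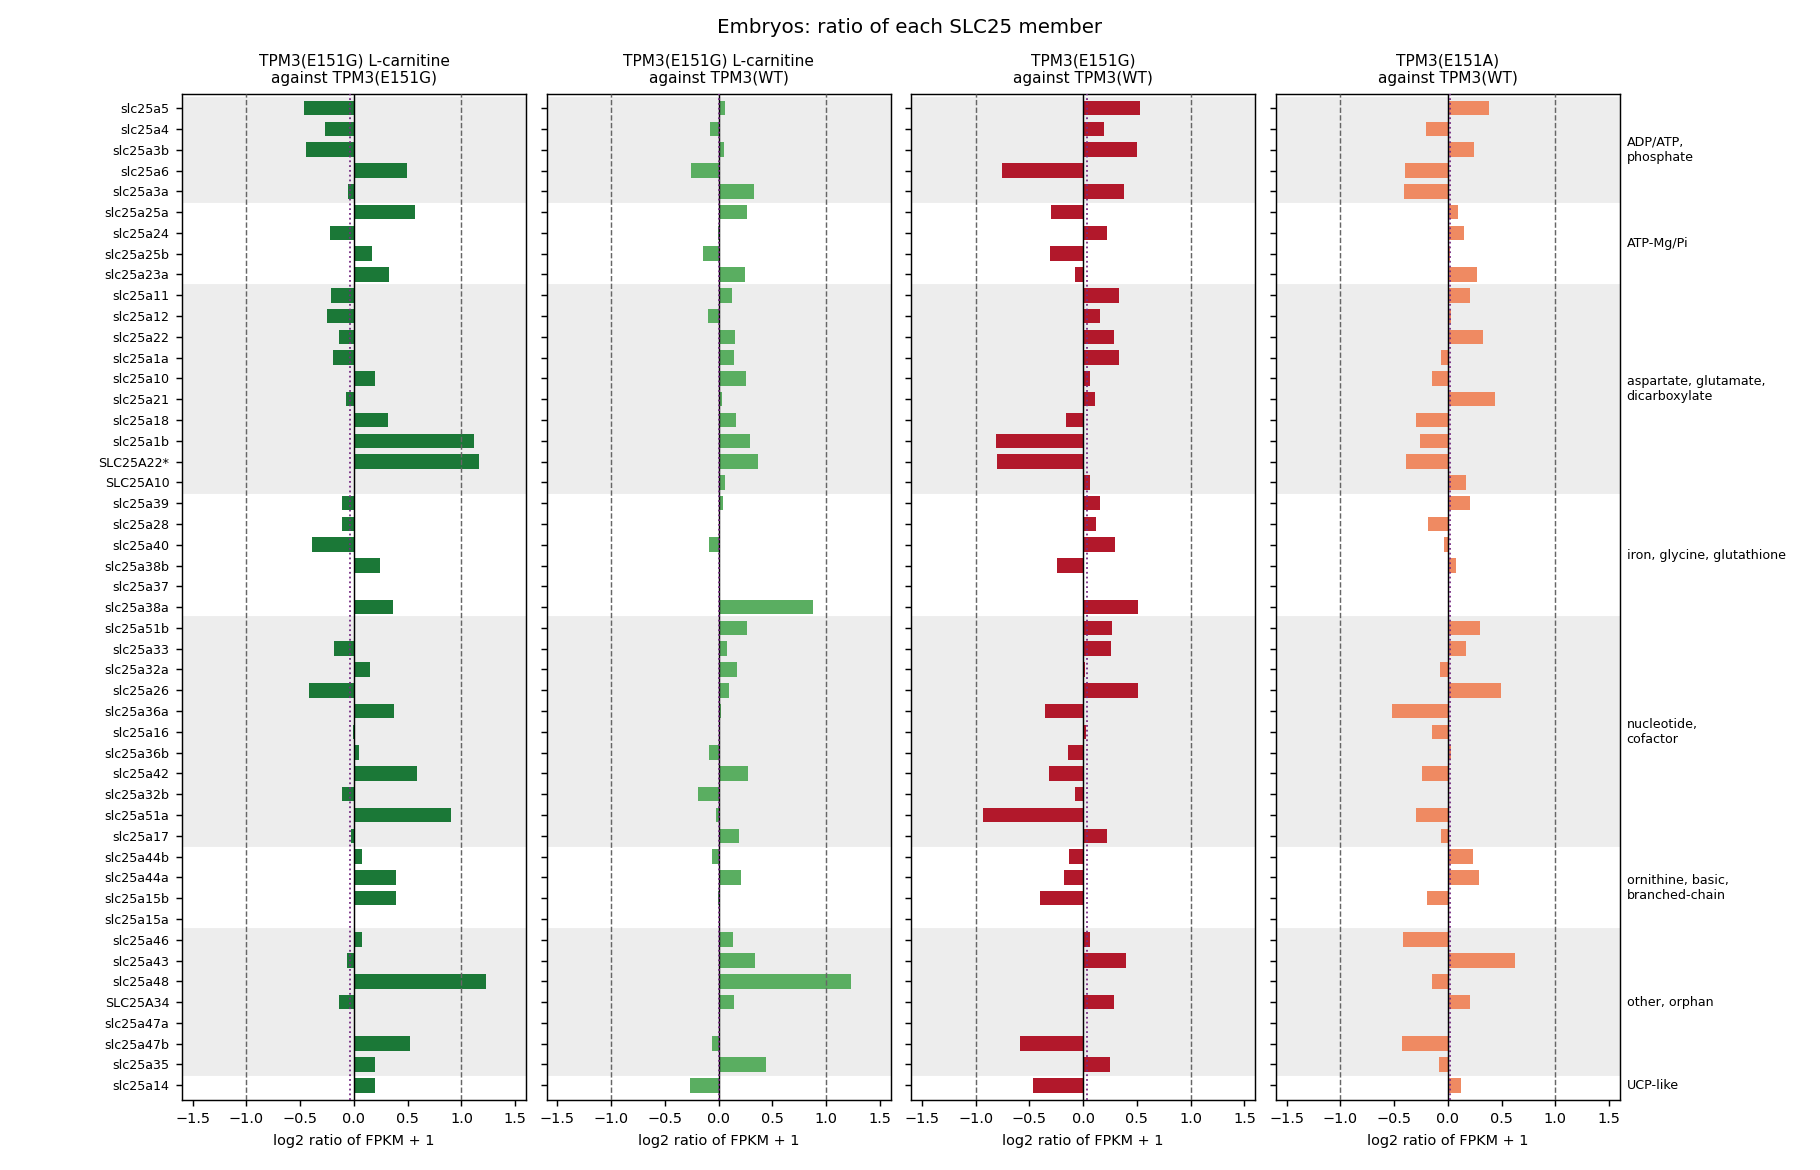
Log2 ratio of FPKM + 1 for each member in embryos, 1 bar per member, in 4 comparisons named above the panels; dashed lines mark 2-fold, the dotted line is the median of all genes, and a member under 1 FPKM in both conditions has no bar. slc25a48 passes the line in both L-carnitine panels, and no bar passes it in the panels of TPM3(E151G) or TPM3(E151A) against TPM3(WT).

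L-carnitine is the substrate that slc25a20 carries into mitochondria bound to acyl groups, and the treated embryos were set against untreated TPM3(E151G). Of 46 members, 3 were higher by 2-fold or more and none lower, against 2.55% of 17585 genes higher and 0.199% lower. The members' share was 6.52% and their median 0.02, beside -0.04 over all genes. The 3 were slc25a48, SLC25A22 (1 of many) of chromosome 25 and slc25a1b, at log2 ratios of 1.23, 1.17 and 1.11. All 3 stayed past 2-fold under the 3 other scalings.

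slc25a48 (chr14:25293357-25301757, ENSDARG00000021250), linked to choline import in mammalian mitochondria, had 23.6 FPKM in L-carnitine-treated TPM3(E151G), 9.48 in TPM3(E151G), 8.43 in TPM3(E151A) and 9.46 in TPM3(WT) embryos. The treated library was alone above the others, which lay close together. Against TPM3(WT) its ratio was 1.23, the only member past 2-fold among 46, against 1.97% of 17731 genes higher and 0.384% lower. Liver markers were also highest in the treated library. The 15 listed summed to 2497 FPKM in L-carnitine-treated TPM3(E151G), 722 in TPM3(E151G), 523 in TPM3(E151A) and 518 in TPM3(WT) embryos, with 15, 14, 14 and 14 of them at 1 FPKM or more and none listed at 0. fabp10a, a liver fatty acid binding protein, had 388, 98.6, 61.1 and 58.5 FPKM in the same order, and the part of liver RNA in the slc25a48 value was not tested.

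The other 2 members were lowest in untreated TPM3(E151G) and, by less than 2-fold, above TPM3(WT) after treatment. SLC25A22 (1 of many) of chromosome 25, a glutamate carrier by name, had 6.35 FPKM in L-carnitine-treated TPM3(E151G), 2.27 in TPM3(E151G), 3.35 in TPM3(E151A) and 4.69 in TPM3(WT) embryos. The citrate carrier slc25a1b had 8.29 FPKM in L-carnitine-treated TPM3(E151G), 3.3 in TPM3(E151G), 5.31 in TPM3(E151A) and 6.57 in TPM3(WT) embryos. Against TPM3(WT) the treated library differed by 0.37 and 0.30. slc25a51a was next, at 0.90 against untreated TPM3(E151G) and -0.03 against TPM3(WT). The ratio of TPM3(E151G) against TPM3(WT) and that of treated against untreated TPM3(E151G) share the single untreated library, so a low value in that library and a difference between conditions cannot be told apart.

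The abundant carriers were lower in treated than in untreated TPM3(E151G) embryos in deposited FPKM, all under 2-fold. slc25a5 differed by -0.47, slc25a3b by -0.44 and slc25a4 by -0.27. The 17 skeletal muscle markers, all at 1 FPKM or more, summed to 50450 FPKM in L-carnitine-treated TPM3(E151G), 73004 in TPM3(E151G), 56632 in TPM3(E151A) and 52394 in TPM3(WT) embryos, and their part in these values was not tested. All genes of 50 FPKM or more had a median of -0.30 there, and at the same FPKM sum the median of the 5 members of that level turned to 0.02. The carrier import list had a median of -0.39 and the malate-aspartate shuttle and citrate cycle list one of -0.27 (-0.12 and 0.01 at the same FPKM sum), with no gene past 2-fold in either. The latter list counts dld, a zebrafish name of the Notch ligand deltaD and not of a citrate cycle enzyme. Its own ratio there was -0.27. Against TPM3(WT) the treated library had a member median of 0.07, with 33 of 46 members above 0, beside 0.01 and 51.6% over all genes.

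The 13 members outside the rule for named genes, slc25a6 and slc25a23a among them, ranged from 0.0986 to 13 FPKM over all conditions, and their log2 ratios in the 7 comparisons ran between -0.81 and 0.96. They include the mitochondrial-dynamics protein slc25a46, the peroxisomal carrier slc25a17, the coenzyme A carrier slc25a42 and the S-adenosylmethionine carrier slc25a26. Of all 49 members, 24 passed 2-fold in at least 1 comparison, 22 of them in an adult and 3 in an embryo comparison, with SLC25A22 (1 of many) of chromosome 25 in both. The share of all genes that did so in any comparison was not counted, so these counts have no background. In adult TPM3(E151G) against TPM3(WT) alone, 17.4% of all genes were higher and 25.5% lower.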

How the data were processed

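RNA of adult zebrafish muscle and of embryos was sequenced in 10 libraries, and the deposited tables give 1 FPKM per gene and condition, calculated by the authors, with adult replicates combined. According to the study's methods, ribosomal RNA was removed (KAPA RNA HyperPrep with RiboErase), strand-specific libraries were read on a NovaSeq, demultiplexed with bcl2fastq 2.20, trimmed with Trimmomatic 0.36 and aligned with HISAT2 to GRCz11. The submitters' processing notes also name featureCounts 1.6.3 and DESeq2 1.22.2, and the sources used here do not say whether either made the FPKM values. The authors' own ratios, p-values and lists of called genes were not used.

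Log2 ratios were taken of FPKM + 1 for genes at 1 FPKM or more in either condition, with a limit of 2-fold, in Python 3.11.15 with numpy 2.4.6, pandas 2.3.3 and matplotlib 3.10.9. The code was tested on simulated data. The planned limma test of adult genotypes was not run, since the tables hold 1 value per genotype. Alternatives were scaling to the same FPKM sum, to the same sum of nuclear genes or by median of ratios, a pseudocount of 0.1, no FPKM minimum and a limit of 1.5-fold.

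The absolute depth is unknown. Low FPKM values of the embryo tables show steps of whole reads, by which 1 read was worth 1.35 times as much FPKM in TPM3(E151A), 0.853 times in TPM3(E151G) and 1.04 times in L-carnitine-treated TPM3(E151G) as in TPM3(WT). Members counted past the limit, the 8 most abundant of TPM3(WT) in either age and the members of paralog pairs are described by name, and the others by their range, apart from slc25a6 and slc25a23a, named after its values were seen. Members and lists were chosen with earlier results of these data known. Of the members, 1 that enters the counts is not reported singly here. Sequences are not shown.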

Additional observations from a re-analysis of the deposited data

Results flagged for a closer look

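slc25a47b (ENSDARG00000102071), a carrier enriched in mammalian liver, lay in opposite directions in the 2 ages. For TPM3(E151G) against TPM3(WT) its log2 ratio of FPKM + 1 was 1.53 in adult muscle and -0.59 in embryos. The levels were 5.71 FPKM in TPM3(E151G) and 1.33 FPKM in TPM3(WT) muscle, and 2.29 FPKM in TPM3(E151G) and 3.94 FPKM in TPM3(WT) embryos. The difference between the ages was not tested, since each level is 1 value.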

How the results depend on the processing

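The scaling decided most counts, and the cause was not tested. For adult TPM3(E151G) against TPM3(WT), scaling to the same FPKM sum gave 4 members higher and 16 lower (beside 5.07% and 47.5% of all genes). The median was -0.49. Nuclear scaling gave 8 higher (beside 9.79%) with a median of -0.10, and median-of-ratios scaling 5 lower (beside 22.2%) with a median of 0.36. The share of higher among the members past 2-fold was 61.9% as deposited and 20%, 40% and 75% under these scalings, while the median of all genes shifted by -0.78, -0.39 and 0.13. For TPM3(E151G) against TPM3(E151A), the FPKM sum gave 2 higher and 6 lower (beside 1.66% and 29.5% of all genes) with a median of -0.40. Nuclear scaling gave a median of -0.19 and median-of-ratios one of 0.13. The share of higher was 77.8% as deposited and 25%, 62.5% and 75%, and all genes shifted by -0.72, -0.49 and -0.13. For TPM3(E151A) against TPM3(WT), nuclear scaling gave 2 higher (beside 11.2% of all genes). Median-of-ratios scaling gave 6 higher and 3 lower (beside 14.7% and 11.2%) with a median of 0.29. The share of higher was 16.7% as deposited and under the FPKM sum, 28.6% under nuclear and 66.7% under median-of-ratios scaling, with all genes shifted by -0.07, 0.09 and 0.27. In embryos, TPM3(E151A) against TPM3(WT) had a median of -0.14 under the FPKM sum and -0.15 under nuclear scaling. TPM3(E151G) against TPM3(WT) had 4 members lower under each of these (beside 5.27% and 5.36% of all genes), and a median of -0.25 under both. L-carnitine-treated against untreated TPM3(E151G) had medians of 0.26 and 0.28. All genes shifted by up to -0.18, -0.31 and 0.26 in these 3, and by at most -0.06 for treated TPM3(E151G) against TPM3(WT).

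With a pseudocount of 0.1, TPM3(E151A) muscle had 5 members higher than TPM3(WT), TPM3(E151G) embryos had 1 higher and 2 lower than TPM3(WT), and treated embryos had 2 higher than TPM3(WT). The shares of all genes at this pseudocount were not calculated. With a limit of 1.5-fold, TPM3(E151A) muscle had 9 higher (20%) and 9 lower (20%), beside 18.9% and 34.9% of all genes. TPM3(E151G) had 15 higher (32.6%) than TPM3(E151A) in adults, beside 23.6%. TPM3(E151A) embryos had 1 higher (2.22%) and TPM3(E151G) embryos 5 lower (10.9%) than TPM3(WT), beside 5.02% and 9.06%. Treated embryos had 5 higher (10.9%) than untreated and 2 higher (4.35%) than TPM3(WT), beside 9.31% and 3.58%. Of 40 counts of a member in a comparison, which come from 24 members, 26 stayed past 2-fold under the FPKM sum, 33 under nuclear and 34 under median-of-ratios scaling, all 40 under the other pseudocount and without the FPKM minimum, and none reversed. A median was taken as moved past 0.1.

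No paired analysis was possible because the files hold 1 FPKM per adult genotype. Leaving out each adult library in turn was not run for the same reason, and a library's own weight in a value is unknown. Single embryo libraries give no spread, so no difference between embryos has an error.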
